A study of Mus musculus with 4 samples.

Results

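The genes described here form the switch between caspase-8 activity and necroptosis: Cflar, Casp8, Fadd, Ripk1, Ripk3, Mlkl, Zbp1, Tradd, Ticam1 and Cyld. They were taken by name from a small-intestine expression series, as probe sets annotated with exactly 1 gene symbol. Of the 10 named genes 9 had such a probe set, out of 19938 genes with one. Ripk1 was not analysed here. All 9 passed the filter on low values, which kept 13956 genes. Cflar is given by all 3 of its probe sets, and each other gene by the one that read highest on average.

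Total RNA of the small intestine of C57BL/6 mice was hybridised to 4 single-colour Affymetrix arrays. The wild-type arrays are replicate 1, titled XX, and replicate 2, titled XY. The CFLARs Tg arrays, from mice with a transgene for the short form of the CFLAR protein, are replicate 1, titled XCFX, and replicate 2, titled XCFY. XX with XCFX form the XX-type pair below, and XY with XCFY the XY-type pair. This reads the titles as sex chromosomes, with XCF as an X chromosome that carries the transgene. The title of the series places the study in ileitis of preterm mice, but no label gives the age of these animals. How many animals stand behind an array, which promoter drives the transgene, from which species its sequence comes and how many founder lines were used is also not stated in the sources used here. With that reading each array has its own genotype and sex type, so no 2 arrays share an animal, though an array may be 1 animal or a pool. The spread within a group then mixes the sex types with differences between animals or pools and between arrays, which cannot be told apart. On the same reading XCFX also holds an X chromosome without the transgene and XCFY does not. Transgene dose may therefore differ between the CFLARs Tg arrays, and it cannot be told apart from sex type. The p-values rest on this mixed spread, moderated over all fitted genes.

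As background, ligands of death receptors, Toll-like receptors that use the adaptor TRIF and the nucleic acid sensor ZBP1 all lead to complexes that hold RIPK1 or RIPK3. FADD brings caspase-8 into these complexes, and caspase-8 paired with the long form of CFLAR cleaves RIPK1, RIPK3 and CYLD and so restrains necroptosis. When caspase-8 is not active, RIPK3 phosphorylates MLKL, which then breaks the plasma membrane. The short form of CFLAR lacks the caspase-like part and blocks activation of caspase-8. In the intestinal epithelium, loss of caspase-8 or FADD is known to cause necroptosis and inflammation of the ileum.

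The sex part of the title notation was borne out by sex-linked genes, which do not check the XCF part. Xist read 12.90 to 12.92 on the XX-type arrays, and 3 Y-linked genes (Kdm5d, Uty, Eif2s3y) read 9.08 to 10.35 on the XY-type arrays. On the other type these 4 genes read 5.13 to 6.78, which is used below as a scale of background. Epithelial markers showed the tissue: Vil1 read 11.99 to 12.21 and Cdx2 10.64 to 10.95 on the 4 arrays. In bulk tissue, fewer cells of a type and less RNA per cell cannot be told apart. Values of different probe sets are not comparable as levels, so each gene is compared with itself between arrays.

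Promoter windows are shown for 3 of the genes whose readings are compared below, to give the sequence at the start sites of the kinase gene that rose most clearly (Ripk3), the protease gene that rose (Casp8) and the restraining gene that was not called (Cflar). They run from 250 bases before to 50 bases after the start site, in the direction of the gene, from RefSeq on GRCm38.p6. The table held windows of 7 of the 9 genes, all but those of Zbp1 and Tradd. Capitals mark matches, on either strand, to an interferon-stimulated response element core (GAAA, any 2 bases, GAAA), an interferon regulatory factor site (AANNGAAA, which the core contains), a gamma-activated site (TTCNNNGAA), an Sp1 box (GGGCGG) or the NF-kB motif.
Ripk3, chr14:55788808-55789107, minus strand: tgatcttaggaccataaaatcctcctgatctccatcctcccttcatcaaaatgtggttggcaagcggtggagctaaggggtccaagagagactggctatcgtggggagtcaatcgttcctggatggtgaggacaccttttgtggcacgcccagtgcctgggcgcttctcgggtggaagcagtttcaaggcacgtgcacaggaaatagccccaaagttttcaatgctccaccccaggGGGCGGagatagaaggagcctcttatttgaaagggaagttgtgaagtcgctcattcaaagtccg
Casp8, chr1:58802252-58802551, plus strand: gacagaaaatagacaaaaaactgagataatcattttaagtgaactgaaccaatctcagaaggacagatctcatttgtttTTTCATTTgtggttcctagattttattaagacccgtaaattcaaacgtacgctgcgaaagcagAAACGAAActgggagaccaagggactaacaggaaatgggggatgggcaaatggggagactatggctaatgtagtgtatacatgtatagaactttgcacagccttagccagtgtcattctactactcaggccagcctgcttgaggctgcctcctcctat
Cflar, chr1:58711241-58711540, plus strand: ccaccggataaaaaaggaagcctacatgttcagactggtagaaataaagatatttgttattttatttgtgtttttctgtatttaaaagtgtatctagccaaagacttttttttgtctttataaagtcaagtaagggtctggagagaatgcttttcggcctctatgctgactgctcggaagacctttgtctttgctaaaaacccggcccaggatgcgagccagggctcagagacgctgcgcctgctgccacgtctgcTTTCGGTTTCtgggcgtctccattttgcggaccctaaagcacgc
The Ripk3 window held 1 match, an Sp1 box 14 bases before the start site. The Casp8 window held 2 interferon regulatory factor matches, 171 and 108 bases before the start site. The Cflar window held the only match to the longer interferon core among the 7 genes, printed as TTTCGGTTTC because it lies on the opposite strand, 6 bases after the start site. The core contains an interferon regulatory factor match at the same place. The Mlkl window held 0 matches to these 5 motifs. Of 32851 promoter windows in the table, 3.44% held the interferon core, 23.9% the interferon regulatory factor site, 8.3% the gamma-activated site, 35.7% the Sp1 box and 4.51% the NF-kB motif. A match describes letters only.

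Of the 9 genes, 4 rose in CFLARs Tg intestine and 0 fell (limma, adjusted p under 0.05): Zbp1, Ripk3, Tradd and Casp8. At an unadjusted p under 0.05 stood 5 higher and 2 lower genes, which adds Mlkl, Fadd and Ticam1, beside 39.1% of all fitted genes. Over all fitted genes 19.3% were called, 8.44% as higher and 10.9% as lower. For 7 of the 9 genes the arrays of the groups did not overlap, 5 higher and 2 lower in CFLARs Tg. That was so for 69.6% of all fitted genes (32% higher, 37.6% lower), so this count is near the background. The median difference of the 9 genes was 0.37 on the log2 scale, against -0.01 for all fitted genes. The 2 genes that overlapped between the groups were Cflar and Cyld. Leaving out 1 array leaves a group with 1 array, and the number of calls over all fitted genes then swings widely (closing section). The differences of the 4 called genes kept their sign with any array left out. They ran from 0.94 to 1.496 for Zbp1, 1.04 to 1.26 for Ripk3, 0.28 to 0.46 for Tradd and 0.30 to 0.45 for Casp8.

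**Figure D1:**
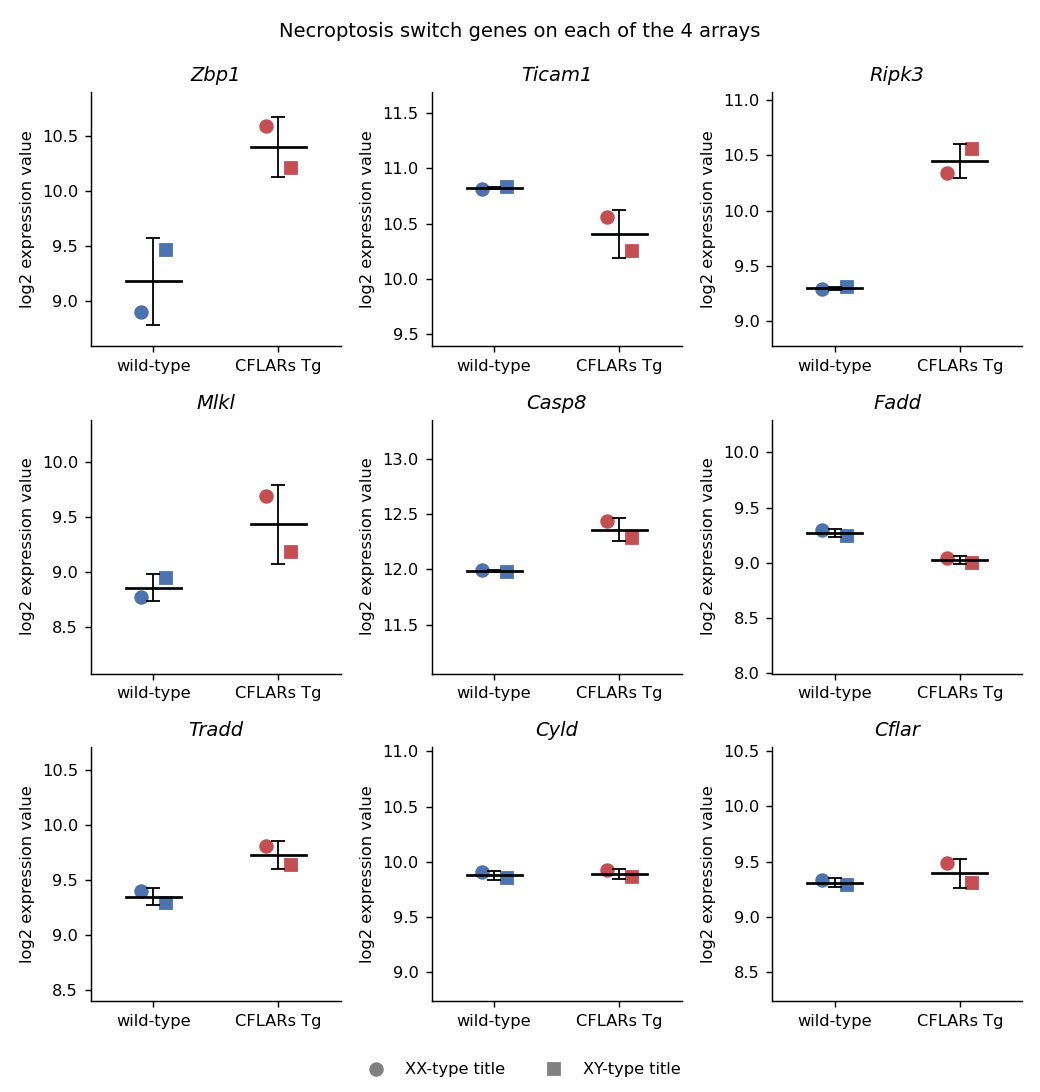
Log2 expression value of the 9 genes on each array, wild-type in blue and CFLARs Tg in red, with circles for XX-type and squares for XY-type titles; bars are the mean and SD of 2 arrays, and every panel spans the same height. Zbp1 and Ripk3 are set apart by gaps of 0.75 and 1.03 between the groups, while Cyld and Cflar overlap.

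Zbp1 encodes a sensor of Z-form nucleic acids that binds RIPK3 through a shared interaction motif. It read 8.90 and 9.46 on the wild-type arrays (replicates 1 and 2 in this order, here and below) and 10.59 and 10.21 on the CFLARs Tg arrays. Both CFLARs Tg readings lay above both wild-type readings, although the wild-type arrays differed from each other by 0.56, the widest wild-type gap among the 9 genes. Zbp1 rose 2.32-fold (95% interval 1.53 to 3.52; log2 difference 1.22, SE 0.23, limma adjusted p = 0.0328). Only 0.774% of fitted genes had a larger positive difference. Its difference was 1.69 between the XX-type arrays and 0.75 between the XY-type arrays.

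Ticam1 encodes TRIF, the adaptor that links Toll-like receptors 3 and 4 to RIPK1 and RIPK3. It read 10.82 and 10.83 in wild-type and 10.56 and 10.25 in CFLARs Tg. The groups did not overlap, and the CFLARs Tg arrays differed from each other more than the wild-type arrays did (0.31 against 0.02). The difference of -0.42 (SE 0.11, 95% interval -0.72 to -0.12) missed the threshold (limma adjusted p = 0.0663). It passed with the title type as a block (adjusted p = 0.0432).

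Tradd encodes the adaptor of TNF receptor 1. It read 9.40 and 9.29 in wild-type and 9.81 and 9.63 in CFLARs Tg, with no overlap. It rose 1.296-fold (log2 difference 0.37, SE 0.09, limma adjusted p = 0.0493). This call lay at the threshold and was lost in 6 of 13 other settings. These were quantile normalization, centring on the array median and no low-value filter (adjusted p from 0.0542 to 0.0574), the leaving out of either wild-type array (0.227 and 0.271) and a minimum difference of 0.5 (adjusted p = 1).

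Ripk3, the kinase at the centre of necroptosis, was the most sharply separated of the genes. It read 9.29 and 9.31 in wild-type and 10.34 and 10.56 in CFLARs Tg. The lower CFLARs Tg reading lay 1.03 above the higher wild-type reading, while readings within a group differed by at most 0.22. Ripk3 rose 2.22-fold (95% interval 1.89 to 2.61; log2 difference 1.151, SE 0.09, limma adjusted p = 0.0122). Only 0.86% of fitted genes had a larger positive difference. The size was close in the pairs, 1.05 in the XX-type and 1.25 in the XY-type pair. When the test asked for more than 0.5 on the log2 scale (treat in limma), Ripk3 had the lowest adjusted p of the 9 genes, 0.0798, and 0.451% of all fitted genes passed. Leaving out either wild-type array moved its difference to 1.14 and 1.16 and its adjusted p to 0.1003 and 0.0968.

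Mlkl encodes the pseudokinase that RIPK3 phosphorylates and that carries out the membrane damage. It read 8.77 and 8.94 in wild-type and 9.69 and 9.18 in CFLARs Tg. The groups did not overlap, but the CFLARs Tg arrays stood 0.51 apart, the widest gap within a group after that of wild-type Zbp1. The difference of 0.58 (SE 0.18, 95% interval 0.09 to 1.06) was not called (limma adjusted p = 0.0896). It was 0.91 between the XX-type arrays and 0.24 between the XY-type arrays. Mlkl was called without CFLARs Tg replicate 2 (difference 0.83, adjusted p = 0.00294) and without CFLARs Tg replicate 1 (difference 0.32, adjusted p = 0.0270), when the spread came from the wild-type arrays alone.

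Casp8 encodes caspase-8, the protease that restrains the RIPK3 pathway. It read 11.99 and 11.98 in wild-type and 12.43 and 12.29 in CFLARs Tg. The groups did not overlap, and the wild-type readings lay within 0.01 of each other. Casp8 rose 1.296-fold (95% interval 1.13 to 1.48; log2 difference 0.37, SE 0.07, limma adjusted p = 0.0351). The size was 0.44 for the XX-type and 0.31 for the XY-type arrays.

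Fadd encodes the death domain adaptor of caspase-8. It read 9.30 and 9.25 in wild-type and 9.05 and 8.997 in CFLARs Tg. The groups did not overlap, and both pairs gave the same difference, -0.25. With an SE of 0.06 this difference lay just on the far side of the threshold (limma adjusted p = 0.05003). It passed with the lowest 50% of genes left out (adjusted p = 0.0468) and with the median of each gene's probe sets (adjusted p = 0.0497).

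Cyld encodes a deubiquitinase that trims chains on RIPK1 and favours the death-inducing complex. It read 9.91 and 9.85 in wild-type and 9.93 and 9.86 in CFLARs Tg. The groups overlapped, with a difference of 0.01 (SE 0.06, 95% interval -0.15 to 0.17, limma adjusted p = 0.884).

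Cflar, the gene of the regulator that the transgene encodes in its short form, was read by probe sets 10497931, 10346551 and 10346562. Probe set 10497931 read 9.34 and 9.28 in wild-type and 9.49 and 9.30 in CFLARs Tg. Probe set 10346551 read 9.10 and 8.91 in wild-type and 9.004 and 8.91 in CFLARs Tg. Probe set 10346562 read 8.39 and 8.22 in wild-type and 8.46 and 8.30 in CFLARs Tg. The groups overlapped on all 3 probe sets. Their differences were 0.08, -0.05 and 0.08 with 95% intervals of -0.13 to 0.30, -0.28 to 0.18 and -0.17 to 0.32 (limma over all single-symbol probe sets, adjusted p = 0.498, 0.735 and 0.594). The upper bounds allow an increase of at most 0.32 on the log2 scale in what these probe sets read. The files do not say whether the transgene's RNA is matched by any of them, so they do not check the genotype labels.

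**Figure D2:**
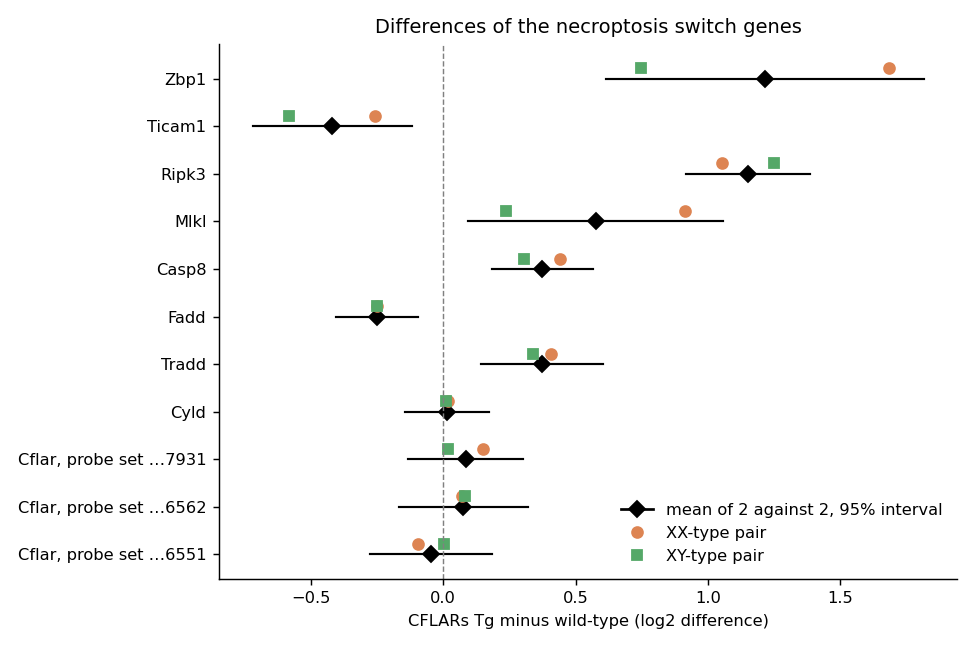
Difference between CFLARs Tg and wild-type on the log2 scale for 8 genes and the 3 Cflar probe sets: diamonds and lines are the fitted difference with its 95% interval, circles the XX-type pair and squares the XY-type pair. The interval lies above 0 for Zbp1, Ripk3, Mlkl, Casp8 and Tradd, below 0 for Ticam1 and Fadd, and spans 0 for Cyld and all Cflar probe sets.

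All 9 genes had the same sign in both title-type pairs, and 7 of the 9 had the larger size in the XX-type pair. Ripk3 and Ticam1 were larger in the XY-type pair. Fadd is counted among the 7, though its pairs were equal at 2 decimals. Whether the pairs differ was not tested, since each is 1 array against 1.

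**Figure D3:**
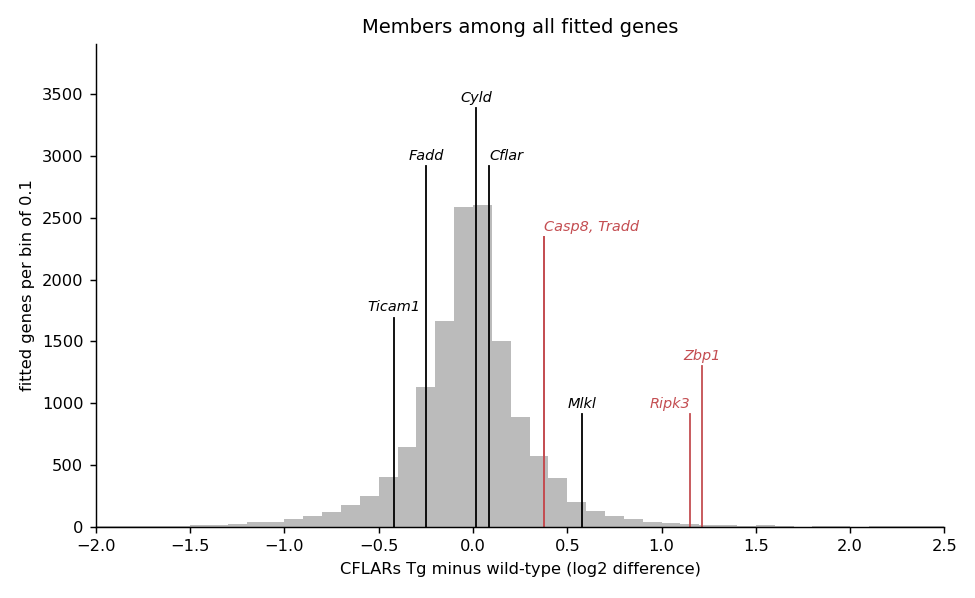
Number of fitted genes per bin of 0.1 in the difference between CFLARs Tg and wild-type (log2 scale), with a vertical line at each member, red where it was called; line heights only separate the labels. The axis leaves out 16 genes below -2 and 25 genes above 2.5, and Ripk3 and Zbp1 lie in the sparse upper tail.

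The change of 1 gene was also set against that of another on the same arrays, in 8 combinations, which removes any factor that scales a whole array. The change of Ripk3 exceeded that of Casp8 by 0.61 in the XX-type and 0.94 in the XY-type pair on the log2 scale, and the arrays of the groups did not overlap. Relative to Cflar, the mean change was 1.07 for Ripk3, 1.13 for Zbp1, 0.49 for Mlkl and 0.29 for Casp8, each without overlap. Casp8 changed by 0.62 relative to Fadd, also without overlap. Mlkl relative to Casp8 overlapped between the groups, with 0.47 in the XX-type and -0.07 in the XY-type pair. With 2 arrays against 2, an exact two-sided permutation test cannot go below p = 0.333, which the 7 combinations without overlap reached (0.381 after Benjamini-Hochberg adjustment over the 8). The test could not pass a threshold, single genes already did not overlap in 69.6% of cases, and the values are given as a description.

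Genes upstream of the switch were mostly not called. Of 21 listed death receptors, ligands and nucleic acid sensors 18 were fitted, of which 4 rose and 1 fell (limma), with a median of 0.07. The calls make up 27.8% of the 18, against 19.3% of all fitted genes. Tnf, the ligand best known for driving necroptosis, read 7.05 and 7.22 in wild-type and 8.24 and 8.42 in CFLARs Tg. Its rise of 1.197 (SE 0.10, adjusted p = 0.0133) was nearly the same in both pairs, 1.193 and 1.201. Tnf passed the low-value filter only through CFLARs Tg, since its wild-type mean of 7.13 lies under the limit of 7.48, so its call adds nothing to the list's count. Of the 17 other fitted genes 4 were called (23.5%). Tnfrsf1b, the gene of TNF receptor 2, rose by 0.90 and Tnfrsf21, the gene of death receptor 6, by 0.44. Ifngr1, a subunit gene of the interferon-gamma receptor named here after its value was seen, rose by 0.32. Mavs, the adaptor gene of cytosolic RNA sensing, fell by 0.68 (adjusted p = 0.0228). With each array omitted in turn, the median difference of the 18 genes ranged from -0.12 (CFLARs Tg replicate 1 omitted) to 0.21 (CFLARs Tg replicate 2 omitted). Calls of this and the next lists are not counted in such fits, since the number over all fitted genes swings widely.

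Among 29 fitted genes that control RIPK1 by ubiquitin or kinases (30 listed), 5 rose and 1 fell, with a median of 0.01. These calls are 20.7% of the list, near the 19.3% of all fitted genes. Tnfaip3, which encodes the ubiquitin editor A20, read 8.93 and 8.84 in wild-type and 10.20 on both CFLARs Tg arrays. It rose 1.32 on the log2 scale (SE 0.06, limma adjusted p = 0.00417). Birc3, the gene of cIAP2, rose by 0.99, Ikbke, a kinase gene related to Tbk1, by 0.48, and Tank, whose product binds TBK1, by 0.35. Mapkapk2, the gene of the kinase MK2 that phosphorylates RIPK1, rose by 0.29 and is named after its value was seen. Tab1, a partner of the kinase TAK1, fell by 0.26. The linear ubiquitin ligase genes Rnf31, Rbck1 and Sharpin differed by 0.05, -0.05 and -0.06 and overlapped between the groups, and they too were chosen after their values were seen. The median difference of these 29 genes ranged from -0.04 (CFLARs Tg replicate 1 omitted) to 0.06 (CFLARs Tg replicate 2 omitted) when each array was omitted in turn.

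Of 27 listed regulators of RIPK3 and MLKL and genes of membrane repair 25 were fitted, of which 5 rose and 1 fell (24% against 19.3% of all fitted genes), with a median of 0.00435. Hsp90aa1, a chaperone gene needed for RIPK3 and MLKL function, rose by 0.62. Pgam5, a mitochondrial phosphatase gene linked to RIPK3, and Ippk, an inositol phosphate kinase gene, each rose by 0.50. Uhrf1, whose product keeps DNA methylated, rose by 0.49. Camk2d, named after its value was seen, rose by 0.31. Ninj1, which encodes a protein that ruptures the membrane of dying cells, fell by 0.44 (limma adjusted p = 0.0318). Omitting each array in turn kept the median difference of these 25 genes between -0.0013 (wild-type replicate 1 omitted) and 0.016 (CFLARs Tg replicate 1 omitted).

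Zbp1 and Mlkl are known to respond to interferon, so a list of interferon induced genes was read beside them. Of 30 listed genes 25 were fitted, of which 9 rose and 0 fell (limma), with a median of 0.55. The called share was 36%, against 19.3% of all fitted genes. At an unadjusted p under 0.05 stood 12 genes, all higher, which is 48% of the list against 39.1% of all fitted genes. Cxcl9 and Cxcl10, chemokine genes induced by interferon-gamma, rose by 3.68 and 2.87. Iigp1 and Irgm1, which encode immunity-related GTPases, rose by 2.28 and 1.5005. Irf7, a transcription factor gene of the type I interferon response, differed by -0.58 (limma adjusted p = 0.176). The list's median was 0.83 for the XX-type and 0.17 for the XY-type arrays, the same order as for Zbp1 and Mlkl and the opposite of Ripk3. The XX-type median was also the higher in the upstream list (0.225 against -0.156) and the RIPK1 control list (0.062 against -0.021). It was the lower for the regulators of RIPK3 and MLKL (0.014 against 0.032). Of the 9 switch genes 7 had the larger size in the XX-type pair, so this order does not set the interferon list, Zbp1 and Mlkl apart. Of the 25 interferon induced genes 9 lay higher in CFLARs Tg in the XX-type pair and lower in the XY-type pair (36%). In this order also moved 6 of 25 regulators of RIPK3 and MLKL, 8 of 29 RIPK1 control genes and 5 of 18 upstream genes. Its share over all fitted genes is not given here. Opposite directions in either order were found for 23.2% of all fitted genes. They were found for 44% of the regulators of RIPK3 and MLKL, 31% of the RIPK1 control genes and 27.8% of the upstream genes. The part of the interferon list in the results of the switch genes was not tested. Omitting each array in turn gave interferon medians from 0.30 (CFLARs Tg replicate 1 omitted) to 0.68 (CFLARs Tg replicate 2 omitted).

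**Figure D4:**
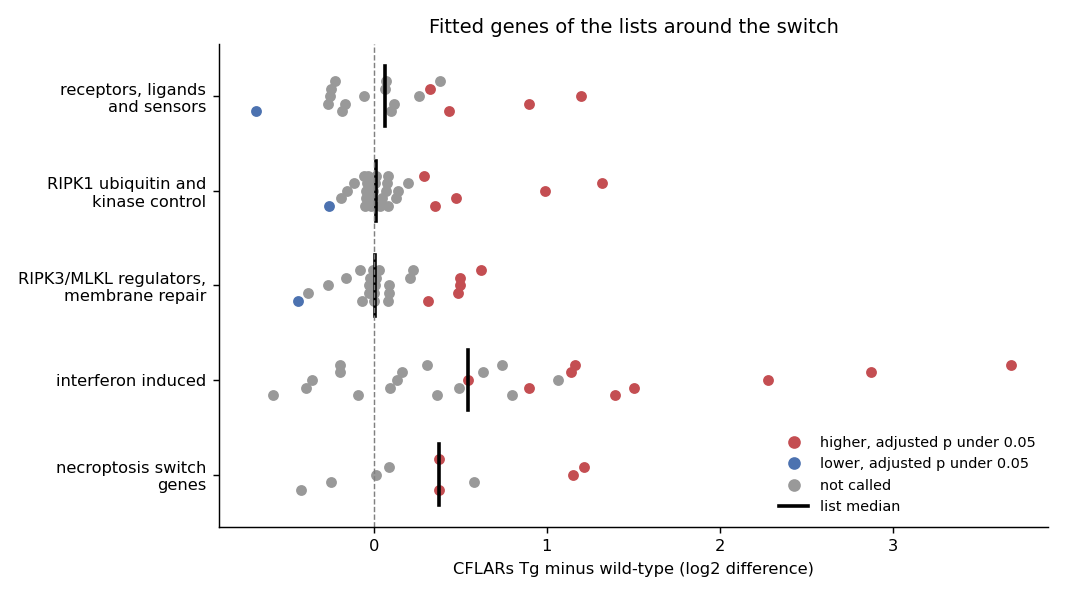
Difference between CFLARs Tg and wild-type (log2 scale) of each fitted gene in 4 lists and of the 9 switch genes, red where called higher, blue where called lower and grey otherwise, with a black bar at the median; height within a row only separates points. The medians are 0.07, 0.01, 0.00435, 0.55 and 0.37 from top to bottom.

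Ripk3, Mlkl and Zbp1 are also expressed by leukocytes, and neutrophil markers were higher in CFLARs Tg. Counts of fitted markers without overlap are read here against 32% of fitted genes higher and 37.6% lower. The mean log2 value of 10 neutrophil markers was 6.97 and 7.02 in wild-type and 8.24 and 9.32 in CFLARs Tg, and 9 of the 10 were higher without overlap. The wild-type mean of 6 of the 7 fitted neutrophil markers was under the filter limit, so they passed it only through CFLARs Tg. Their calls are not counted, and the count without overlap is not set against the share of all fitted genes. The 10 monocyte and macrophage markers had means of 8.84 and 8.86 in wild-type and 9.17 and 9.69 in CFLARs Tg. Of the 10, 8 were higher without overlap and 0 were called (limma). At a limma unadjusted p under 0.05 stood 6, against 39.1% of all fitted genes. Both counts include Cd14, whose wild-type mean of 7.32 lies under the filter limit of 7.48. Cd14 passed only through CFLARs Tg and adds nothing to either count. The 8 measured T and natural killer cell markers had means of 7.25 on both wild-type arrays and of 7.49 and 7.66 in CFLARs Tg. Of the 8, 4 were higher without overlap, and of the 3 that were fitted, 2 were. The granzyme genes Gzmb (difference 1.598, below the filter) and Gzma (0.82, called) differed most. Cd8a (0.14, below the filter) and Nkg7 (0.14, not called) were also higher without overlap. The T cell genes Cd3e (-0.08), Cd3d (-0.0012), Cd3g (-0.0028) and Cd4 (-0.034) overlapped between the groups. Cd3d was within the background scale on all arrays. The 7 measured B cell markers stayed between means of 6.91 and 7.01, and Ms4a1 and Jchain were within the background scale. Ripk3 was higher on CFLARs Tg replicate 2 than on replicate 1, whereas Zbp1, Mlkl, Casp8 and Tradd were higher on replicate 1. Marker means were higher on replicate 2 for neutrophils, macrophages, T and natural killer cells, endothelial cells, and fibroblasts and smooth muscle. Those of B cells, epithelial cells, hepatocytes and pancreatic acinar cells were higher on replicate 1. The part of leukocytes in these results was not tested.

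Markers of other cells in the tissue differed in part. The 10 epithelial markers had means of 11.90 and 11.93 in wild-type and 12.30 and 12.18 in CFLARs Tg. Without overlap 7 of 10 were higher and 1 lower, against 32% and 37.6% of all fitted genes. The lower one was Cdx2 (-0.21, limma adjusted p = 0.118), while Epcam (-0.08) and Vil1 (-0.08) overlapped between the groups. Among the 10 epithelial markers Krt8, Krt18, Krt20 and Elf3 were called as higher (limma, 4 of 10, against 8.44% of all fitted genes) and 0 as lower. The 6 endothelial markers had means of 10.39 and 10.32 in wild-type and 10.07 and 10.20 in CFLARs Tg, with 4 of 6 lower without overlap. Of these Kdr, Tek and Emcn were called (limma, 3 of 6, against 10.9% of all fitted genes called as lower). The 8 fibroblast and smooth muscle markers had means of 12.19 and 12.20 in wild-type and of 12.19 and 12.33 in CFLARs Tg, with 3 of 8 higher and 1 lower without overlap and 0 called (limma; 1 at an unadjusted p under 0.05), no more than the background. The 5 measured hepatocyte genes were lowest on CFLARs Tg replicate 2, with a mean of 8.11 against 10.10 to 11.08 on the other arrays. All 5 were lower in CFLARs Tg without overlap, against 37.6% of all fitted genes. Of the 5, 1 was called, Ttr (-0.84, limma adjusted p = 0.0360), with -0.61 in the XX-type and -1.07 in the XY-type pair. The 4 measured genes of pancreatic acinar cells were highest on wild-type replicate 2, with a mean of 10.12 against 7.69 to 8.36 elsewhere. Their part in the results was not tested.

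Genes with the profile most like that of Ripk3, Mlkl and Zbp1 were sought over all fitted genes, by the distance between log2 values centred on each gene's own mean over the 4 arrays. With 4 points and 13956 genes, close matches arise for any profile. Nearest to Ripk3 were Tnfaip2 (distance 0.0472), Capg, Myl7, Atp10b and Tnf (0.118). Nearest to Mlkl were Psmb9 (0.0577), Serpinb1a, H2-Q4, Klf4 and Irf1 (0.161). Nearest to Zbp1 were Tm4sf4 (0.156), Gbp3, Apol6, S100a14 and Tap1 (0.2799). Apol6 (wild-type 6.95 and 7.29), S100a14 (6.80 and 7.09) and Tnf (7.05 and 7.22) read under the filter limit of 7.48 in wild-type. They were available as neighbours only through their CFLARs Tg readings. Tnfaip2, a TNF-induced gene, differed by 1.08 in the XX-type and 1.31 in the XY-type pair, beside 1.05 and 1.25 for Ripk3. Psmb9, an immunoproteasome subunit gene, differed by 0.97 and 0.30, beside 0.91 and 0.24 for Mlkl. Tm4sf4, the gene nearest to Zbp1, differed by 1.60 and 0.94, beside 1.69 and 0.75 for Zbp1. Gbp3, a guanylate-binding protein gene of the interferon list and second nearest, differed by 1.47 and 0.81. These pair values lie close because the genes were picked by distance.

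**Figure D5:**
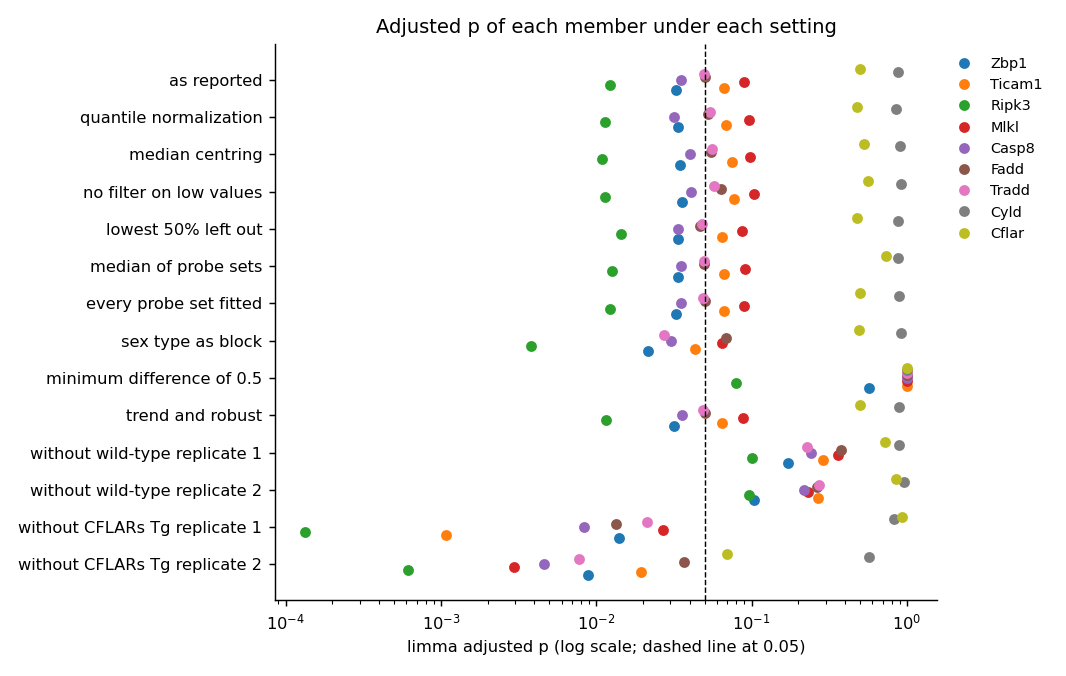
Limma adjusted p of each of the 9 genes (log axis, dashed line at 0.05) as reported and under 13 other settings, 1 row each. Ripk3, Zbp1 and Casp8 lie left of the line in 10 of the 13 and right of it without either wild-type array and with a minimum difference of 0.5.

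Ripk3, Zbp1 and Casp8 were each called under 10 of 13 other settings, Tradd under 7, Fadd under 4, Ticam1 under 3, Mlkl under 2, and Cflar and Cyld under 0 (limma). Over these settings the log2 difference of Ripk3 ran from 1.04 to 1.26, that of Zbp1 from 0.94 to 1.496 and that of Casp8 from 0.30 to 0.45.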

How the data were processed

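The authors deposited 1 log2 value for each of 28856 probe sets on each of 4 arrays, 2 per genotype. How they corrected, summarised and normalized the signals is not given in the sources used here. Medians ran from 8.31 to 8.33. Precision is limited by the number of arrays. Gene names came from the platform annotation (21789 probe sets with 1 symbol). The probe set with the highest mean stood for a gene, and the 30% of genes with the lowest mean (under 7.48) were left out. limma 3.58.1 (R 4.3.3; lmFit, eBayes, no covariates, 2 residual degrees of freedom) compared CFLARs Tg with wild-type, with Benjamini-Hochberg adjustment over 13956 genes at 0.05. The script was tested on simulated data. Differences are CFLARs Tg minus wild-type, with the moderated SE and 95% interval.

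The genes and the lists were chosen with earlier results of these data known. In each list the text names all called genes if at most 4, otherwise the 4 with the largest difference, plus the largest in the direction opposite to the median; others are marked as chosen after their values were seen. List symbols were matched exactly. The other settings are given in the closing section. The fit has no block for title type, since no label states that the titles pair the arrays.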

Additional observations from a re-analysis of the deposited data

Results flagged for a closer look

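In 17 results the title-type pairs moved opposite ways, which was not tested, since each pair is 1 array against 1. Over all fitted genes 23.2% did so. Probe set 10346551 of Cflar differed by -0.10 in the XX-type pair and by 0.0037 in the XY-type pair, both below the gap of 0.19 between its wild-type arrays. The difference of Mlkl minus Casp8 changed by 0.47 and -0.068 (XX-type first, here and below). The ubiquitin ligase genes Rnf31 and Rbck1 differed by 0.20 and -0.10 and by 0.062 and -0.16. The epithelial marker Vil1 differed by 0.028 and -0.18, and the T cell markers Cd3d, Cd3g and Cd4 by 0.069 and -0.071, -0.057 and 0.051, and 0.029 and -0.096. The other 9 were interferon induced genes, the 1 list looked through gene by gene, each higher in CFLARs Tg between the XX-type arrays and lower between the XY-type arrays. Ifit2 differed by 1.68 and -0.21, Ifit3 by 0.52 and -1.24 and Ifit1 by 0.22 and -1.002. Usp18, which encodes a brake on the type I interferon receptor, differed by 0.83 and -0.56. Oasl2 differed by 0.51 and -0.33, Oas1a by 0.42 and -0.60 and Bst2 by 0.37 and -0.044. Of the factors that carry the type I interferon signal, Stat2 differed by 0.10 and -0.49 and Irf9 by 0.030 and -0.42. The group difference of none of these 9 genes was called (limma, 0 of 9; adjusted p from 0.282 for Ifit2 to 0.817 for Oas1a). Other lists also held genes whose pairs moved opposite ways. In either order these were 11 of 25 regulators of RIPK3 and MLKL, 9 of 29 RIPK1 control genes and 5 of 18 upstream genes. Higher in the XX-type and lower in the XY-type pair were 6, 8 and 5 of them, beside 9 of 25 interferon induced genes.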

How the results depend on the processing

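Leaving out each array in turn gave 40 to 6559 called genes and 0 to 7 called members. The log2 differences then ran from 0.30 to 0.45 for Casp8, 1.04 to 1.26 for Ripk3, 0.94 to 1.496 for Zbp1, 0.28 to 0.46 for Tradd, 0.32 to 0.83 for Mlkl, -0.28 to -0.22 for Fadd, -0.57 to -0.27 for Ticam1, -0.018 to 0.047 for Cyld, and -0.0076 to 0.18, -0.14 to 0.049 and -0.0088 to 0.16 for Cflar probe sets 10497931, 10346551 and 10346562. A minimum difference of 0.5, by construction a stricter test, left 63 genes and 0 members, with Casp8 (0.37), Ripk3 (1.151), Zbp1 (1.22) and Tradd (0.37) lost. Tradd was also lost after quantile normalization (0.38), after median centring (0.37) and without a filter. Fadd (-0.25) passed under a 50% low-value filter and with the median of probe sets, where Cflar, not called, turned to -0.046. Ticam1 (-0.42) passed with title type as a block. The cause of these changes was not tested. The upstream, RIPK1 control, regulator and interferon lists, with 5, 6, 6 and 9 calls, had 0, 1, 0 and 4 against a minimum difference of 0.5. With 2 arrays a group, small differences of the size seen for Cyld and Cflar cannot be told from 0.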
